A study of Bos taurus with 6 samples.

Results

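The miRNAs described here are bta-miR-21-5p, bta-miR-21-3p, bta-miR-146a and bta-miR-146b, taken by name from a table of 706 miRNAs, of which 359 carry names of known Bos taurus miRNAs and the others were newly predicted by the authors. All 4 were listed, and all 4 had enough counts to be tested between the diets. The small RNAs came from extracellular vesicles (EVs), membrane-enclosed particles that cells release, in the serum of 6 female Holstein cows in mid lactation, with 1 library per cow. The 3 cows of the control group ate a total mixed ration. The 3 of the tested group ate one in which whole cotton seed and soybean hull stood in for part of the alfalfa hay. The tested ration also held less corn silage and slightly more steam-flaked corn. All cows were kept in chambers at the same temperature and humidity, and blood was drawn on day 30 without anticoagulant. The vesicles were bound to an affinity membrane, so the counts describe whatever vesicles the serum of a whole animal held, and more vesicles from a cell type cannot be told apart from more of a miRNA in each vesicle.

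A miRNA is cut from a hairpin precursor whose arms can both give a mature strand (5p and 3p), and bases 2 to 8 of the mature strand, the seed, pair with target messenger RNAs. MiR-21 is among the most abundant miRNAs of many mammalian tissues, is raised by inflammatory signals and represses PDCD4. MiR-146a and miR-146b are encoded by separate genes. MiR-146a is induced by NF-kB after Toll-like receptor signals, and the family represses TRAF6 and IRAK1, which carry that signal, so it acts as a brake on inflammation. Both families are widely measured as markers of inflammation.

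The listed sequences show which reads the counting could confuse. They are printed 5′ to 3′ with T for U, as the table gives them, and the capitals mark the seed.
bta-miR-21-5p: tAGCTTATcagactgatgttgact
bta-miR-21-3p: aACAGCAGtcgatgggctgtct
bta-miR-146a: tGAGAACTgaattccataggttgt
bta-miR-146b: tGAGAACTgaattccataggctgt
The sequences of bta-miR-146a and bta-miR-146b are both 24 nt long and are identical at 23 positions, with the single substitution T21C (bta-miR-146a first, positions counted from 1 at the 5′ end). They share the seed GAGAACT, so a read that lacks its last bases, or carries an error at position 21, could be given to either. How the counting treated such reads is not given in the sources used here, and the division between these 2 miRNAs is therefore uncertain. Of the 706 listed sequences, 3 have this seed. The third is novel260_mature, an 18-nt sequence 12 edits away from both (aGAGAACTctggagaagg), and it had 264, 86 and 282 counts in control cows 1 to 3 and 345, 142 and 210 in tested cows 1 to 3, without passing the test (log2 fold change 0.30, standard error (SE) 0.715, edgeR adjusted p = 0.962). No other listed miRNA had the seed of bta-miR-21-5p or bta-miR-21-3p. The listed sequences nearest to them were 7 and 8 edits away.

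In the RefSeq gene table of assembly ARS-UCD2.0, the miRNAs belong to the genes MIR21, MIR146A and MIR146B, and no other annotated gene overlaps any of them. The gene nearest to MIR21 is VMP1, which encodes a membrane protein of autophagy. The authors matched reads to the earlier assembly ARS-UCD1.2, so no coordinates are given.

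Counts on known miRNAs, which scale every level below, ranged from 1226928 to 2088249 per library, with the fewest in tested cow 1. Levels are counts-per-million of the known miRNA counts (CPM), and since a read covers a whole miRNA they need no correction for length. Intervals of single values are 95% exact binomial (Clopper-Pearson) and cover counting error alone, in which PCR copies of 1 molecule count as separate reads. As marker lists of the cells that serum vesicles could come from, the 3 red blood cell miRNAs (bta-miR-451, bta-miR-144, bta-miR-486) summed to 8621 to 28434 CPM in 5 cows and 59608 in tested cow 1, or 5.96% of its known counts against 0.862% to 2.84% in the others. The white blood cell list (4 of 5 in the table, bta-miR-142-3p not among them) summed to 196.4 to 385.8 CPM in the control group and 123.5 to 439.3 in the tested group. The liver list (3 of 3) summed to 1068 to 1590 and 1130 to 2024, the epithelial list (6 of 7) to 74400 to 88914 and 87883 to 93931, and the list for platelets and blood vessels (5 of 5) to 276.8 to 659.0 and 690.7 to 838.7 CPM. No list member in the table was at 0 in all cows.

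For the diets, edgeR's quasi-likelihood test was fitted over 623 miRNAs (312 known, 311 newly predicted), and a log2 fold change is positive where the tested group was higher. A miRNA was called where it passed both limits of the study's heat map, p below 0.05 before adjustment and a log2 fold change beyond 1 in either direction. None of the 4 miRNAs was called, against 3.21% of the 623. None had an unadjusted p below 0.05 in edgeR, DESeq2 or limma with all 6 cows, against 4.65% of the 623 in edgeR, and none an adjusted p below 0.05, against 0.161%. The groups overlapped for all 4, while they did not overlap for 11.2% of the 623. The log2 fold change was negative for 3 of the 4 with a median of -0.19, beside a median of 0.07 over all miRNAs tested, of which 46.5% were negative.

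The abundant 5p arm of miR-21 differed little between cows. The level of bta-miR-21-5p was 7934, 7336 and 7145 CPM in control cows 1 to 3 and 6125, 7542 and 7471 in tested cows 1 to 3. Tested cow 1 was the lowest, its interval of 5988 to 6265 lying below those of the other 5 cows, and the other tested cows lay inside the control range. The group means were 7472 ± 411.8 (SD, n = 3) and 7046 ± 798.3 (SD, n = 3). Their difference was -425.8 CPM (permutation test, exact and two-sided as all below, p = 0.6, where 3 cows against 3 allow no p below 0.1). The log2 fold change was -0.14 (SE 0.178, edgeR adjusted p = 0.872), and its 95% interval in linear terms ran from 0.694-fold to 1.18-fold. Without tested cow 1 the means differed by 34.6 CPM in the other direction. That cow also had the highest share of counts on red blood cell miRNAs, and the part of those cells in its low level was not tested.

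Among known miRNAs, bta-miR-21-5p ranked between 25 and 28 in every cow and 25 by its mean share, which was 0.726% of the known counts. Its neighbours in that order were bta-miR-30b-5p with 8326 ± 920.4 CPM (SD, n = 6) and bta-miR-30e-5p with 7161 ± 606.4 (SD, n = 6), and its own mean was 7259 ± 614.1 (SD, n = 6), with ranges over the cows that overlapped for all 3. It held 91.9% of the summed counts of the 4 miRNAs. The sum over the 4 ranged from 0.663% of the known counts in tested cow 1 to 0.886% in control cow 1.

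**Figure D1:**
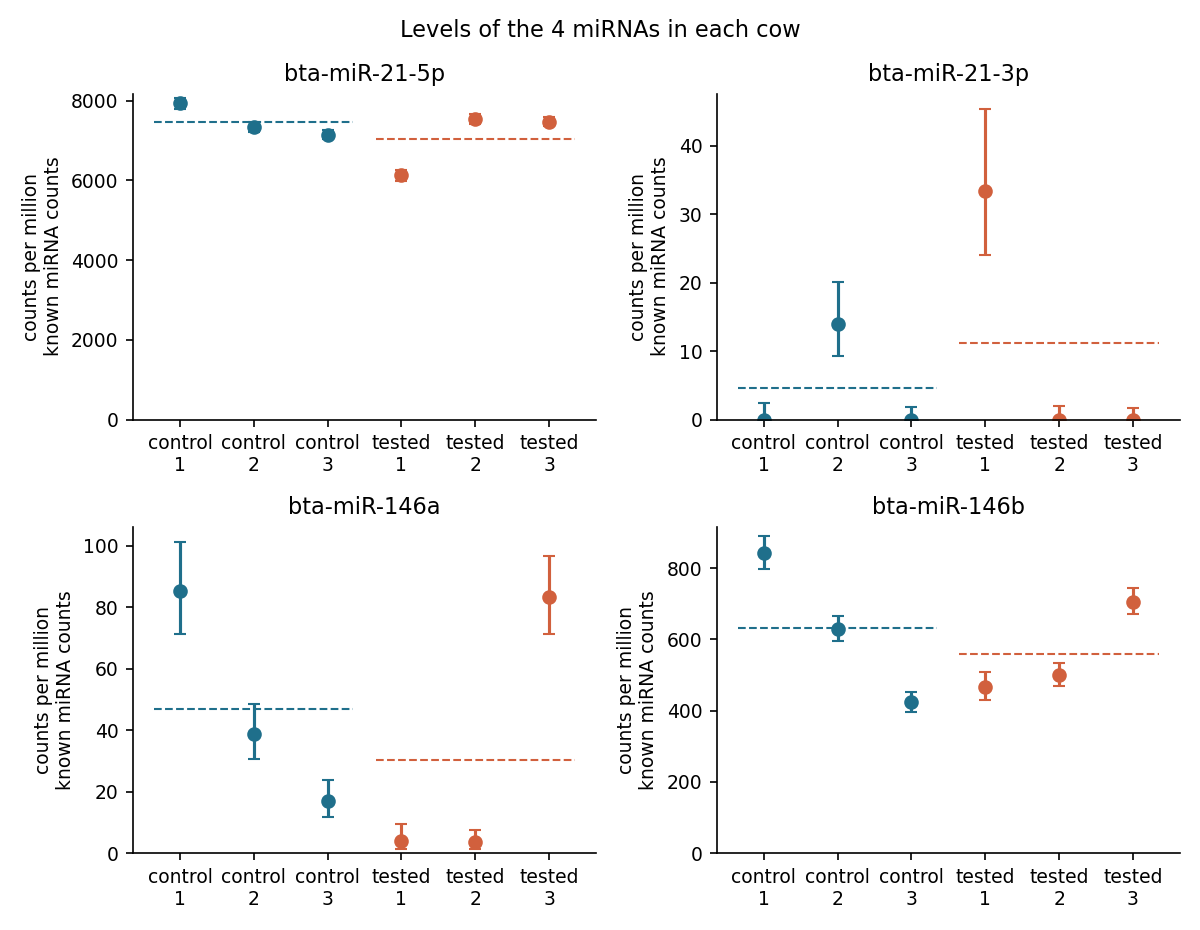
Level of each miRNA in each cow, in CPM of the known miRNA counts, with the y axis from 0, exact 95% counting intervals as bars and group means of 3 cows as dashed lines (control cows in blue, tested cows in orange). For bta-miR-21-5p 5 cows lie between 7145 and 7934 with tested cow 1 at 6125, bta-miR-146a is lowest in tested cows 1 and 2, and bta-miR-21-3p is above 0 in 1 cow of each group.

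The other arm of the same hairpin was scarce, and 4 cows had no counts of it. For bta-miR-21-3p the counts were 0, 28 and 0 in control cows 1 to 3 and 41, 0 and 0 in tested cows 1 to 3. Each group thus held 1 cow with counts and 2 with none, at 13.9 CPM in control cow 2 and 33.4 in tested cow 1. In the 4 cows without counts, 3 counts would be 1.44 to 1.95 CPM and the exact 95% intervals reach up to 1.77 to 2.40 CPM. The group means were 4.65 ± 8.05 (SD, n = 3) and 11.1 ± 19.3 (SD, n = 3) CPM (permutation test, exact, p = 1). The fitted log2 fold change of 1.21 (SE 2.78, edgeR adjusted p = 0.954) rests on tested cow 1. Without that cow the tested group has no counts left, and the fitted value of -6.17 depends on the prior count and is no bound. The interval with all cows ran from 0.0358-fold to 149.4-fold, so a change with diet was not measurable for this arm.

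Such an on-or-off pattern was frequent at this level, in a comparison made after the values were seen. Of the 80 known miRNAs with a total between 34.5 and 138 counts, which includes bta-miR-21-3p with 69, 27 were at 0 in at least 4 libraries and 13 had a count in every library. The median miRNA among them had counts in 3 of the 6 libraries. Tested cow 1, which held most of the bta-miR-21-3p counts, was also the cow with the highest red blood cell sum, and the part of those cells in this count was not tested. Control cow 2, the other cow with counts, had 1.63% of its known counts on red blood cell miRNAs.

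The arms of miR-21 were very unequal. Over all cows the 3p arm made up 0.0879% of the miR-21 counts. In the cows with counts it was 0.190% in control cow 2 (interval 0.126% to 0.274%) and 0.543% in tested cow 1 (interval 0.390% to 0.735%), and in the others 3 counts would be 0.0192% to 0.0246%. As log2 of 5p over 3p with 0.5 added to both counts, the arm ratio was 12.8 ± 3.28 (SD, n = 3) under the control diet and 12.4 ± 4.25 (SD, n = 3) under the tested diet (permutation test, exact, p = 0.9). In the 4 cows without 3p counts the value is set by the 5p count and the added 0.5. The means and their difference are thus not measured arm ratios. The sign of this difference changed when control cow 1, control cow 3 or tested cow 1 was left out (0.50, 0.61 and 2.07). Among 21 known miRNAs with both arms listed, the 5p arm had more counts in 12, the median share of the scarcer arm was 7.42%, and in the pooled counts miR-21 was the second most unequal after let-7a (0.0793%). This place rests on few 3p counts, 41 of the 69 from tested cow 1. With each cow left out, a check added after the values were seen, miR-21 ranked between 1 and 3, and without tested cow 1 its 3p share was 0.0395% against 0.0657% for let-7a.

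In miR-146, the b form prevailed in every cow. The level of bta-miR-146b was 843.7, 629.7 and 424.0 CPM in control cows 1 to 3 and 467.8, 501.2 and 706.3 in the tested cows. The highest and the lowest value both belonged to control cows, with all tested cows between them. The group means were 632.5 ± 209.8 (SD, n = 3) and 558.5 ± 129.1 (SD, n = 3). Their difference of -74.0 CPM was smaller than either SD (permutation test, exact, p = 0.7), and it changed to 31.6 CPM without control cow 1. The log2 fold change was -0.23 (SE 0.360, edgeR adjusted p = 0.882), with an interval from 0.497-fold to 1.46-fold. By its mean share bta-miR-146b ranked 60 among known miRNAs, between bta-miR-29a with 702.3 ± 169.4 and bta-miR-24-3p with 580.4 ± 193.5 CPM (SD, n = 6). These neighbours were taken for their closeness in mean, and the differences from them were not tested.

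Its near copy bta-miR-146a was much scarcer and far more variable. It had 131, 78 and 34 counts in control cows 1 to 3 and 5, 7 and 174 in tested cows 1 to 3, or 85.2, 38.8 and 17.1 CPM in the first group and 4.08, 3.72 and 83.3 in the second. Tested cows 1 and 2 were below every control cow, and tested cow 3 was level with the highest of them. Between the lowest and the highest cow the level differed 22.9-fold over all cows, 22.4-fold within the tested group and 4.99-fold within the control group, against 1.30-fold over all cows for bta-miR-21-5p and 1.99-fold for bta-miR-146b. The group means were 47.0 ± 34.8 (SD, n = 3) and 30.4 ± 45.9 (SD, n = 3) CPM (permutation test, exact, p = 0.5). The log2 fold change was -0.74 (SE 1.30, edgeR adjusted p = 0.911), and the interval from 0.0850-fold to 4.24-fold includes no change as well as large changes both ways. By its mean share of 38.7 ± 37.5 CPM (SD, n = 6) bta-miR-146a ranked 137 among known miRNAs, next to bta-miR-126-3p with 40.4 ± 23.2 and bta-miR-191b with 37.6 ± 28.3. These too were taken for their closeness in mean, without a test. In single cows the rank of bta-miR-146a ran from 114 to 203, while that of bta-miR-146b ran from 55 to 68.

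For bta-miR-146a the comparison turned on single cows. Without tested cow 3 the log2 fold change was -3.51 (standard error 1.65, unadjusted p of 0.0490 and adjusted p of 0.722 from edgeR), just past the threshold for a call, while without control cow 1 it was -0.051 and the difference in level changed sign, from -16.7 to 2.42 CPM. Without control cow 3 the log2 fold change was -1.12, and without tested cow 1 or 2 it was -0.23 and -0.22. The lone call did not survive adjustment over all miRNAs tested. In limma on log2(CPM + 1) the estimate with all cows was -1.70 (limma adjusted p = 0.802). The red blood cell sums beside these values were 28434, 16300 and 13468 CPM in control cows 1 to 3 and 59608, 10840 and 8621 in the tested cows, and the white blood cell sums were 385.8, 218.5 and 196.4 and then 439.3, 238.9 and 123.5. In the control group both sums had the order of bta-miR-146a, and in the tested group both were highest in cow 1 and lowest in cow 3, which had the most bta-miR-146a. Their part in the bta-miR-146a values was not tested.

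**Figure D2:**
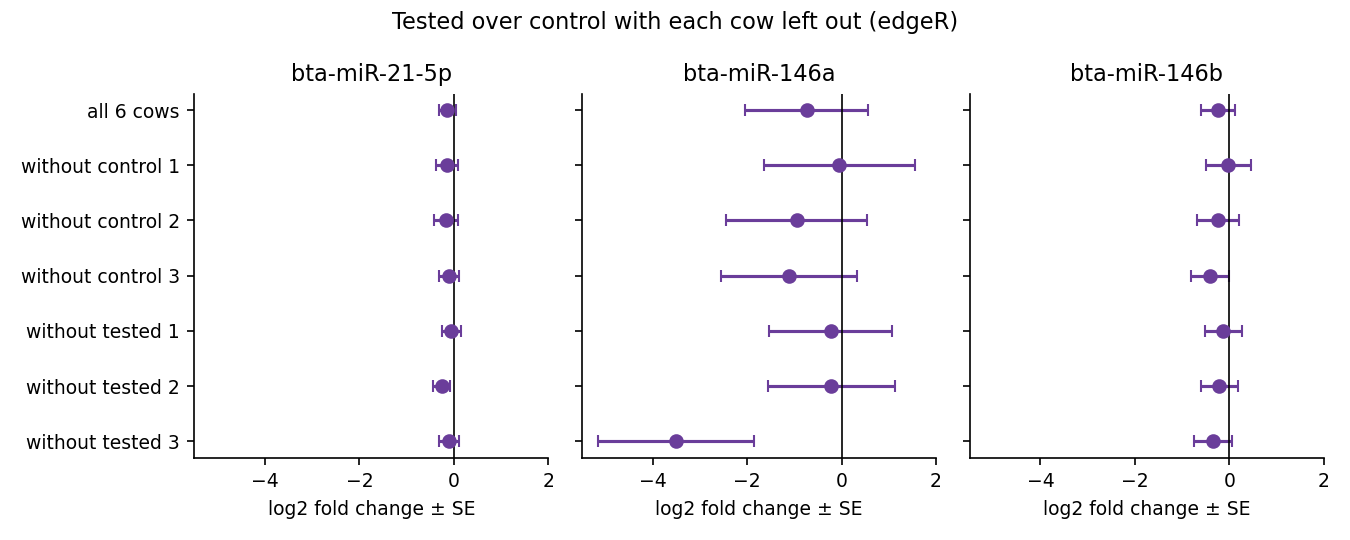
Log2 fold change of tested over control (x axis, bars are ± 1 standard error from edgeR) for bta-miR-21-5p, bta-miR-146a and bta-miR-146b with all 6 cows and with each cow left out in turn. The values for bta-miR-21-5p stay between -0.26 and -0.05 and those for bta-miR-146b between -0.41 and -0.02, while bta-miR-146a moves from -0.051 to -3.51.

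The division between the near copies showed the same pattern without any library size in it. The a form made up 9.17%, 5.81% and 3.87% of the miR-146 counts in control cows 1 to 3 and 0.864%, 0.738% and 10.6% in the tested cows. The intervals of tested cows 1 and 2, 0.281% to 2.00% and 0.297% to 1.51%, lay below those of the other 4 cows. The log2 ratio of a over b, with 0.5 added to both counts, was -3.98 ± 0.656 (SD, n = 3) under the control diet and -5.59 ± 2.18 (SD, n = 3) under the tested diet (permutation test, exact, p = 0.4). The difference of -1.61 kept its sign with each cow left out, between -0.92 and -2.86. Summed over both, miR-146 was 679.5 ± 244.1 CPM (SD, n = 3) under the control diet and 588.8 ± 174.7 (SD, n = 3) under the tested diet (permutation test, exact, p = 0.7), and the log2 fold change of the sum was -0.26.

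**Figure D3:**
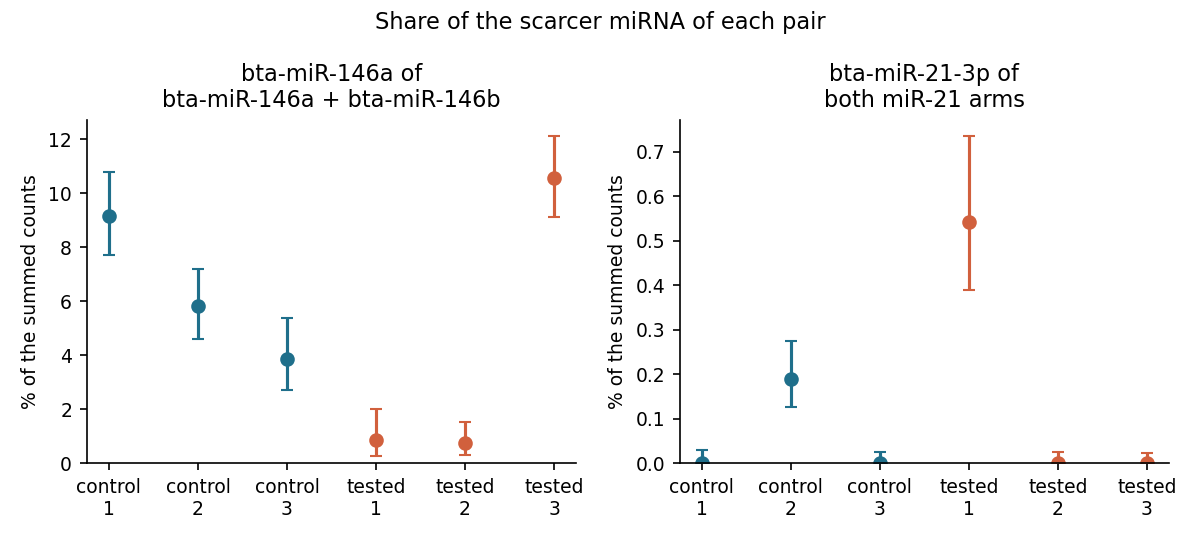
Share of bta-miR-146a in the counts of bta-miR-146a and bta-miR-146b (left) and of bta-miR-21-3p in the counts of both miR-21 arms (right), in percent for each cow, with exact 95% counting intervals, control cows in blue and tested cows in orange. Tested cows 1 and 2 are below 1% and tested cow 3 is at 10.6% on the left, and 4 cows are at 0 on the right.

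The spread between cows fed alike was set beside that of known miRNAs of similar abundance, within 2-fold of the mean CPM (here of all listed miRNAs and scaled by TMM, as in the next paragraph). The SD of log2(CPM + 1) within groups was 0.142 for bta-miR-21-5p, where the median of 18 miRNAs of its level was 0.171 and 15 of them varied more. For bta-miR-146b it was 0.329 beside a median of 0.356 over 34 miRNAs, 18 of which varied more. The SD of bta-miR-146a was 1.77 beside a median of 1.28 over 40 miRNAs, and 10 of the 40 varied more. For bta-miR-21-3p it was 2.59 beside 1.96, and 1 of 72 varied more. In the tested group alone the SD of bta-miR-146a was 2.27, and in the control group 1.03.

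**Figure D4:**
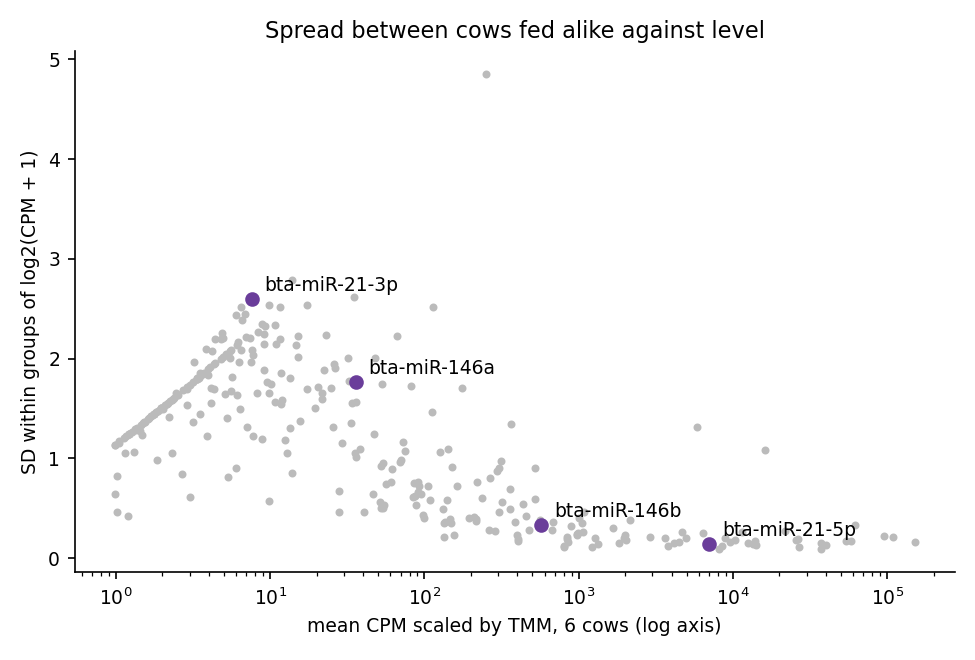
Spread within groups, as the SD of log2(CPM + 1), against the mean CPM scaled by TMM on a log axis, for the 312 known miRNAs tested (grey) and the 4 miRNAs described (purple, named). The spread is smaller at higher levels, and bta-miR-146a at 1.77 and bta-miR-21-3p at 2.59 lie in the upper part of the cloud at their level.

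The known miRNAs whose levels followed each miRNA most closely were taken by Pearson's r of log2(CPM + 1) over the 6 cows, among known miRNAs with a mean of at least 50 CPM. These values share the same 6 libraries and their scaling, and the 3 named for each are the highest of about 130, so they are a description only. For bta-miR-21-5p they were bta-miR-30e-5p (r = 0.940), bta-miR-125a (0.904) and bta-miR-339a (0.860). For bta-miR-146b they were bta-miR-127 (0.982), bta-miR-191 (0.824) and bta-miR-423-5p (0.769). The CPM of bta-miR-127, which comes from the imprinted DLK1-DIO3 region, was 170.4, 89.6 and 23.0 in control cows 1 to 3 and 24.9, 51.4 and 75.3 in the tested cows, highest in control cow 1 and lowest in control cow 3 and tested cow 1, as for bta-miR-146b. For bta-miR-146a they were bta-let-7i (0.835), bta-miR-146b itself (0.809) and bta-miR-10174-3p (0.794). The r of bta-miR-21-5p with bta-miR-146b, not chosen for its size, was 0.240. No likeness was computed for bta-miR-21-3p, which had counts in only 2 libraries.

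Other miRNAs linked to inflammation were taken from a list of 14, of which 12 were in the table and tested. None of the 12 was called and none had an unadjusted p below 0.05 in edgeR, DESeq2 or limma. The log2 fold change was negative for 7 and positive for 5, with a median of -0.22. Placing bta-miR-147 at the bound given below could not move this median, because the bound also lies below it. The 4 most abundant members were bta-miR-125b, bta-miR-125a, bta-miR-181a and bta-miR-24-3p. Among them bta-miR-125a, a mammalian relative of worm lin-4, had a level of 11214, 12191 and 10727 CPM in control cows 1 to 3 and 8266, 10777 and 10717 in tested cows 1 to 3, lowest in tested cow 1 as for bta-miR-21-5p (log2 fold change -0.26, SE 0.171, edgeR adjusted p = 0.572). The log2 fold change was -0.18 for bta-miR-125b (SE 0.164), 0.04 for bta-miR-181a (SE 0.257) and 0.33 for bta-miR-24-3p (SE 0.371). For bta-miR-181b, next in abundance, the group means were 301.7 ± 81.4 (SD, n = 3) and 321.3 ± 77.9 CPM (SD, n = 3). Its log2 fold change was 0.02 (SE 0.458). In tested cow 1 the level of bta-miR-125b was the lowest of the 6 cows, as was that of bta-miR-24-3p, while that of bta-miR-181a, at 2156 CPM, was above all control cows.

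The miRNAs that leukocytes are known for were scarce. For bta-miR-155, which activated lymphocytes and macrophages make and which promotes the inflammatory response that miR-146a restrains, the level was 63.1, 67.7 and 118.1 CPM in control cows 1 to 3 and 36.7, 108.5 and 22.5 in the tested cows. Its lowest value was in tested cow 3, the tested cow in which bta-miR-146a was highest. For bta-miR-223, a miRNA of neutrophils and platelets, the level was 21.5, 14.9 and 2.01 CPM in control cows 1 to 3 and 11.4, 6.39 and 45.5 in the tested cows, highest in tested cow 3, which also had the most bta-miR-146a of the tested cows. The groups overlapped for both (log2 fold changes -0.60 and 0.64, adjusted p of 0.881 and 0.970 from edgeR). The level of bta-miR-150, typical of mature lymphocytes, was 205.6, 119.5 and 64.8 CPM and then 326.0, 113.3 and 52.2, and that of bta-miR-142-5p, common to blood cells, was 95.6, 16.4 and 11.6 and then 65.2, 10.6 and 3.35. Both were lowest in tested cow 3 and highest in control cow 1 or tested cow 1. The least abundant, bta-miR-132, bta-miR-9-5p and bta-miR-147, each had most of their counts in 1 control cow. All 12 counts of bta-miR-147, which dampens Toll-like receptor signals in macrophages, came from control cow 1. Against 3 counts as the limit for the whole tested group, its level there was at least 3.75-fold lower, which rests on that 1 cow, as control cows 2 and 3 were at 0 too, and it was not called (unadjusted p of 0.101 from edgeR).

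**Figure D5:**
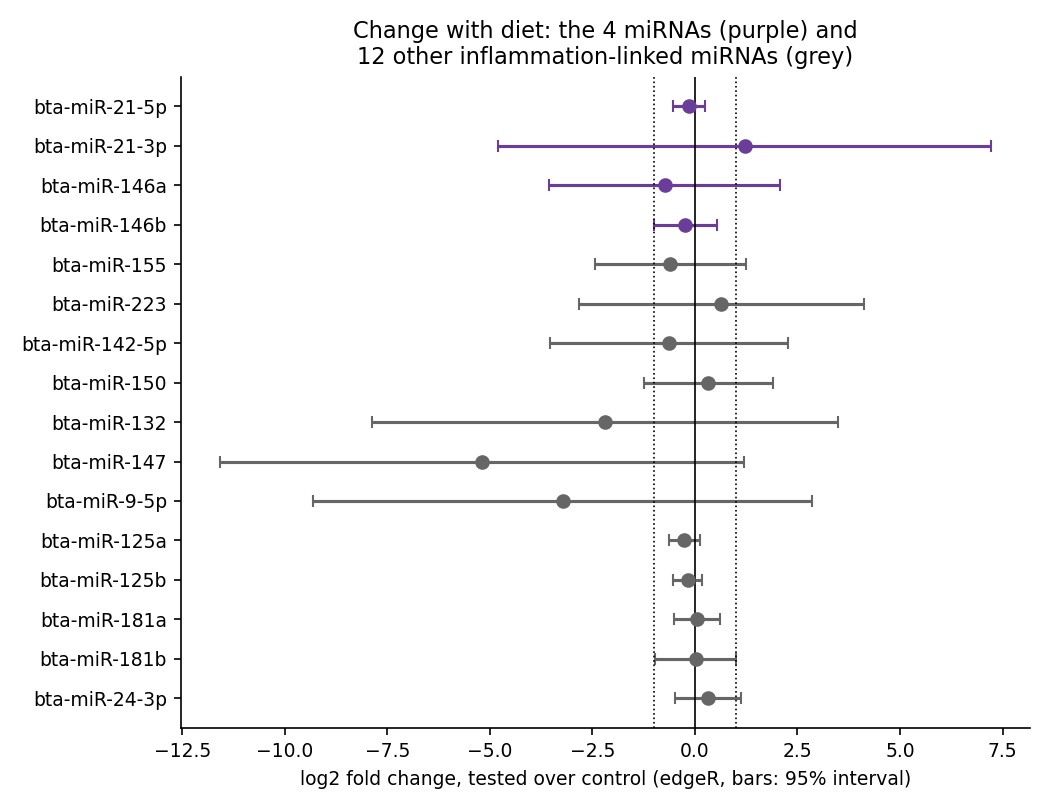
Log2 fold change of tested over control with its 95% interval from edgeR (x axis) for the 4 miRNAs described (purple) and 12 other miRNAs linked to inflammation (grey), with dotted lines at -1 and 1. All 16 intervals include 0, and they are narrow for abundant miRNAs such as bta-miR-21-5p (-0.53 to 0.24) and wide for scarce ones such as bta-miR-21-3p (-4.80 to 7.22).

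Among the marker lists, only that for platelets and blood vessels gave a called miRNA. There edgeR called 1 of 5 (bta-miR-199a-3p, edgeR adjusted p = 0.448), against 3.21% of all 623 miRNAs tested. Its level was 11.1, 22.4 and 6.03 CPM in control cows 1 to 3 and 182.6, 19.2 and 58.4 in the tested cows, so the groups overlapped. DESeq2 called bta-miR-199a-3p and bta-miR-126-5p, and limma called neither. The 5 log2 fold changes of that list were all positive with a median of 1.01. The medians were 0.58 for red blood cells (3 of 3 positive), -0.14 for white blood cells (2 of 4 positive), 0.06 for liver (3 of 3 positive) and 0.24 for epithelium (4 of 6 positive). The positive median of the red blood cell list goes with tested cow 1, since the summed levels of tested cows 2 and 3 were below those of every control cow.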

How the data were processed

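Serum EV small RNAs of 6 cows, 3 per group and 1 library each, were analysed from 2 deposited tables. The authors removed adapters and low-quality reads (cutadapt 1.14 is named in their processing notes), matched reads to ARS-UCD1.2 with Bowtie named as a tool, took known miRNAs from miRBase and predicted others with miRDeep2. The deposited counts are whole numbers without normalization. A second table, labelled TPM by the authors, holds RPM values, which are the same counts scaled to all clean reads of a library, and served as an alternative. Fold changes and p-values of the authors, also in the tables, were not used, nor was the table of the miRNAs they called.

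Members and lists were chosen with earlier results of these data known. Counts of at least 10 over the 6 libraries were required. R 4.3.3 with edgeR 4.0.16 (TMM, estimateDisp, glmQLFit, glmQLFTest) gave fold changes, and p-values were adjusted by Benjamini and Hochberg over 623 miRNAs. The standard error is the log2 fold change divided by the root of F. Levels and ratios were compared by 7 two-sided exact permutation tests in Python 3.11.15 with SciPy 1.17.1. Their p-values were not adjusted. Alternatives were DESeq2 1.42.0, limma 3.58.1, other factors, totals, filters and pseudocounts, the replicate number as a block, and each cow left out. The edgeR, DESeq2 and limma fits were tested on simulated data. Besides the members, the text names miRNAs with a member's seed or within 2 edits of it, list members, neighbours in level and the 3 most correlated miRNAs. MiRNAs of the arm comparison were named after their values were seen.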

Additional observations from a re-analysis of the deposited data

How the results depend on the processing

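Of 142 alternative values, 131 kept their direction and their side of the threshold. They include 17 counts of called members, which have no direction. All come from the same 6 libraries, and the fit of each summed pair enters for both of its miRNAs. The tally is therefore no evidence for a direction. With all 6 cows, no alternative called any of the 4 miRNAs. Leaving out each cow in turn gave 0 to 1 called, the 1 being bta-miR-146a without tested cow 3, and its log2 fold change ran from -3.51 to -0.051. That of bta-miR-21-3p ran from -6.17 to 7.36, where the ends have 1 group at 0 and depend on the prior count, and it was -0.14 with both miR-21 arms summed, because the sum follows the 5p arm. The difference in level (tested minus control, CPM) with each cow left out ran from -673.8 to 34.6 for bta-miR-21-5p, -4.65 to 12.1 for bta-miR-21-3p, -43.1 to 2.42 for bta-miR-146a and -178.2 to 31.6 for bta-miR-146b. The miR-21 arm ratio difference ran from -2.28 to 2.07. Known counts without red blood cell miRNAs as the total, chosen after seeing the data, kept all 4 directions. FilterByExpr did not test bta-miR-21-3p.

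The replicate numbers come from the sample titles, and nothing says that they pair cows. Same-numbered cows had correlations of deviations of -0.06, -0.05 and -0.02. With the replicate block the log2 fold changes were -0.15 (bta-miR-21-5p), 0.18 (bta-miR-21-3p), -2.28 (bta-miR-146a) and -0.21 (bta-miR-146b), and 12 miRNAs of the 623 were called in place of 20. Limma called 34. With 3 cows per group and a biological coefficient of variation of 129%, only abundant miRNAs have narrow intervals, and below about 10 counts counting error is large.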
